A study of Mus musculus with 24 samples.

Results

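This account compares the distal with the proximal end of the mandible, the lower jaw, in control mouse embryos at embryonic day 12.5. Its 6 arrays, 3 of each end, were taken by their titles from 24 single-colour expression arrays of the same study, and no measured value entered that choice. The study crossed Wnt1cre;Tgfbr2 fl/+ mice with Tgfbr2 fl/fl mice, so that Cre driven by Wnt1, which is active in the neural crest, deletes the gene of the type II TGF-beta receptor in the mutant offspring. The control embryos were litter mates of the mutants, of strain C57B6. Their own genotype is not stated, and by the cross each inherited at least 1 floxed Tgfbr2 allele. Each mandible was divided into its 2 ends by dissection, and 5 µg of total RNA went into each labelling. The other groups used for comparison have 3 arrays each. They are the 2 ends of the control maxilla (upper jaw) and the 2 ends of the mandible of mutants. The study describes the mutants by cleft palate and a calvarial defect. The question is which genes mark the tip of the developing lower jaw and which its base, near the jaw joint and the ear.

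The mandible grows out of the first pharyngeal arch. Neural crest cells fill the arch and form its bone, cartilage and connective tissue, while muscle precursors come from the arch mesoderm and sensory neurons send axons in from the trigeminal ganglion. Position along the arch is set by signals from the overlying epithelium. BMP4 acts on the distal end and sustains factors such as HAND and MSX proteins, FGF8 acts on the proximal side and sustains factors such as BARX1, and endothelin-1 gives the lower jaw its identity through DLX5, DLX6 and HAND2. Hox genes are silent in first arch crest and are active in the second arch behind it.

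Values are log2 signal, so a difference of 1 is a doubling, and every difference is distal minus proximal with its standard error (SE). A gene was called where limma's adjusted p, Benjamini-Hochberg over 14879 genes, was under 0.05. Array medians lay between 7.26 and 7.34 on the log2 scale. The 30th percentile of an array was 5.85 to 5.91, and a difference from an end below it is measured against background and can only be understated. Unless another fit is named, the SE and p-values rest on the spread within groups over all 24 arrays. They do not rest on the control mandible arrays alone, so an SE can differ from the spread seen between those. Nothing in the labels ties the arrays of an end to separate embryos, so p-values measure only a spread between arrays. In bulk tissue, fewer cells of a type and less RNA per cell cannot be told apart.

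A few arrays stand apart. After subtracting each gene's mean over the 24 arrays, 5 of the 6 control mandible arrays correlated at 0.65 to 0.77 with the other arrays of their end, and distal array 2 at 0.60. Distal array 2 correlated at 0.24 with the proximal arrays, against -0.07 and -0.18 for distal arrays 1 and 3. It gave the highest of the 3 distal values in 270 of the 348 genes called lower distally, and results that turn on it are given with and without it. In the array pair with number 2, Eif2s3y on the Y chromosome read 10.41 and 10.29 against 3.60 to 3.88 in the other 4 arrays, and Xist read 6.50 and 6.74 against 13.58 to 13.75. Outside the control mandible, the arrays with number 1 of the control maxilla and of the knockout mandible leaned to the opposite end at both ends. Knockout mandible distal array 1 correlated at 0.33 with the arrays of its own label and at 0.68 with those of the other end, and for the proximal array these values were 0.44 and 0.60. For control maxilla array 1 they were 0.37 and 0.69 at the distal end and 0.54 and 0.69 at the proximal end. Arrays 2 of those groups leaned less, with 0.58 and 0.64 in the control maxilla and 0.56 and 0.61 in the knockout mandible at the distal end. The 4 arrays numbered 1 enter the estimate of the spread.

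The ends of the control mandible differed in many genes, and the larger differences were mostly on the proximal side. Distally, 165 genes were higher (1.11% of the genes tested) and 348 were lower (2.34%), 513 in all (3.45%). The median difference was 0.73 over the higher genes and -1.26 over the lower ones, against -0.02 over all genes. A difference above 2 in size was reached by 10 higher and 80 lower genes. In all 513 genes the 3 arrays of one end lay beyond the 3 of the other, as they also did in 1735 genes with the distal arrays above and 2775 with them below among all genes tested. With the array number as a block over the 6 arrays, 646 of the 14879 genes were higher and 1253 lower, 1899 in all, and 472 of the 513 were among them. Counts in a list under this block are to be read beside these larger numbers and not beside the 3.45%. The 3.45% is the share to set beside a list's counts from the main fit. With the number as a block over all 24 arrays, 230 genes were called (1.55%), 169 of them among the 513. Without the 4 arrays that lean to the opposite end, 356 genes were higher and 629 lower.

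**Figure D1:**
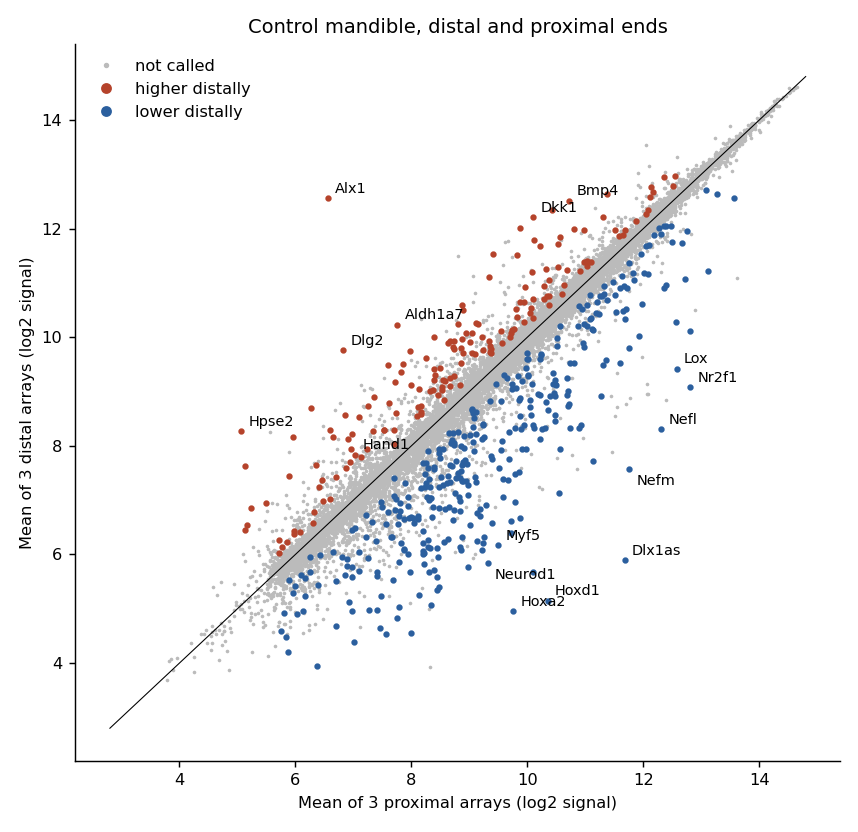
Mean log2 signal of each of 14879 genes in the 3 proximal (x axis) and the 3 distal (y axis) arrays of the control mandible, with the 165 genes called higher distally and the 348 called lower in colour. The called genes lower distally reach farther from the diagonal than those called higher.

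The counts depended on single arrays. Leaving out distal array 2 gave 183 higher and 536 lower genes. Leaving out distal array 1 gave 47 and 69, and leaving out distal array 3 gave 27 and 34. Without proximal arrays 1, 2 and 3 the counts were 18 and 39, 27 and 63, and 43 and 77. A core of 46 genes, 16 higher and 30 lower distally, was called in every one of these 6 fits. Of the 93 called genes named here, 18 were called in all 6 fits, 62 in some and 13 in none. The core held Masp1, Crip1, Lepr, Aldh1a7 and Bambi on the distal side and Nr2f1, Nr2f2, Neurod1, Nefl, Sox10 and Jun on the proximal side.

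Alx1, a paired-type homeobox factor of facial mesenchyme, led the distal side. Its log2 signal was 12.34, 12.61 and 12.72 in the distal arrays and 6.24, 6.34 and 7.11 in the proximal ones. The ends did not come near each other, and the difference was 5.99 (SE 1.15, adjusted p = 0.0115), which is 63.6-fold. The second Alx1 probe set gave 5.71. Alx1 was called in 3 of the 6 fits that leave out an array, in which its difference stayed between 5.83 and 6.26. With the number as a block over 24 arrays its adjusted p was 0.0736.

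The genes next to Alx1 on the distal side were of several kinds. Hpse2, which encodes a heparan sulfate binding relative of heparanase, rose by 3.21 from a proximal level at background, and Dlg2, a synaptic scaffold protein, rose by 2.93. A pair of prostaglandin genes was among them, with the prostaglandin E2 receptor gene Ptger2 at 2.49 and Hpgd, whose product breaks prostaglandins down, at 2.15. Aldh1a7, an aldehyde dehydrogenase, read 10.29, 10.25 and 10.16 distally and 7.84, 7.93 and 7.50 proximally (2.48, SE 0.44, adjusted p = 0.00683). The remaining leaders up to the fifteenth were Sgms2 (sphingomyelin synthesis) at 2.44, Insyn2b at 2.20, the transcriptional co-activator Cited1 at 2.13, the Wnt antagonist Dkk1 at 2.11, the LIM domain protein gene Crip1 at 1.92, the complement protease gene Masp1 at 1.90, Bmp4 at 1.78, the leptin receptor gene Lepr at 1.76 and the tendon gene Tnmd at 1.76. Masp1 had the smallest adjusted p of these 15 genes (0.00209), with 9.24, 9.56 and 9.68 distally and 7.66, 7.73 and 7.41 proximally. Sgms2, Insyn2b and Tnmd lost their call in each fit that left out 1 of the 6 arrays, in which their adjusted p was above 0.05, and a second Sgms2 probe set gave only 0.37.

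The proximal side was led by transcription factors and by genes of neurons. The widest difference was in Dlx1as, a transcript that overlaps the homeobox gene Dlx1. It read 5.56, 5.88 and 6.26 distally and 11.54, 11.71 and 11.79 proximally, and thus fell by 5.78 towards the distal end (SE 0.99, adjusted p = 0.0063). Dlx1 itself fell by 2.42, and the strand each probe set reads was not looked up here. Hoxd1 (-5.20), Hoxa2 (-4.81) and Sim2 (-4.42), a bHLH-PAS factor, followed, each with distal arrays around background. Then came the neurofilament genes Nefm (-4.17) and Nefl (-4.00), the orphan nuclear receptor gene Nr2f1 (-3.73), the neuronal bHLH factor gene Neurod1 (-3.46), 3110099E03Rik (-3.43), the glial fatty acid binding protein gene Fabp7 (-3.42), the stathmin gene Stmn3 (-3.41), the myeloid gene S100a8 (-3.32), the myogenic factor gene Myf5 (-3.32), the calbindin gene Calb1 (-3.27) and Tcf24 (-3.21). With the number as a block over the 6 arrays, S100a8 (adjusted p = 0.0512) and Myf5 (0.0540) were not called, and Calb1 lost its call when any single array was left out.

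Upstream sequences are shown for 5 called genes from groups described here. They are a distal Wnt antagonist (Dkk1), a Hox gene (Hoxa2), subunits of the muscle acetylcholine receptor (Chrna1 and Chrng) and a factor of sensory neurons (Pou4f1). The motif marked was set gene by gene and all 5 sequences hold it. These sequences thus do not show how common a motif is in a group. Each is the 250 bases before the gene's start in RefSeq's mouse annotation (build GRCm38.p6), read 5′ to 3′ along the gene's strand, with the motif named here in capitals. Dkk1 (chr19:30549497-30549746, minus strand) holds TATAAA beginning 54 bases before the start, Hoxa2 (chr6:52164832-52165081, minus strand) holds TGACAG, a Meis type motif, at 44 bases, Chrna1 (chr2:73580339-73580588, minus strand) holds CAGCTG, an E-box, at 92 and 44 bases, Chrng (chr1:87205561-87205810, plus strand) holds it at 155 and 132 bases, and Pou4f1 (chr14:104468000-104468249, minus strand) at 118 bases.
Dkk1: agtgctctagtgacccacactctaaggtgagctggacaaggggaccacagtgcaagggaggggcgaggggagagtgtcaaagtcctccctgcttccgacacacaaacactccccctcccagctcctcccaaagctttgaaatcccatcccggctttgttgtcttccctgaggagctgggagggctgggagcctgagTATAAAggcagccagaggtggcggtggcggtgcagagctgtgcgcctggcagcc
Hoxa2: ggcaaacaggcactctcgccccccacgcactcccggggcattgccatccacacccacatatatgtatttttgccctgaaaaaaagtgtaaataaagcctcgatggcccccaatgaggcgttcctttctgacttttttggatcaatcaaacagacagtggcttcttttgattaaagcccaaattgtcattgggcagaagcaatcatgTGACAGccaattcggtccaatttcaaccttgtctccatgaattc
Chrna1: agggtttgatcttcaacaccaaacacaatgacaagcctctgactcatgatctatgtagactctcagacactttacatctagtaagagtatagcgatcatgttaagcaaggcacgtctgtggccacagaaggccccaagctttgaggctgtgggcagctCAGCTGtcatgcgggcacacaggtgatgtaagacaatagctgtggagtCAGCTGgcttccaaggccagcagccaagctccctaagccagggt
Chrng: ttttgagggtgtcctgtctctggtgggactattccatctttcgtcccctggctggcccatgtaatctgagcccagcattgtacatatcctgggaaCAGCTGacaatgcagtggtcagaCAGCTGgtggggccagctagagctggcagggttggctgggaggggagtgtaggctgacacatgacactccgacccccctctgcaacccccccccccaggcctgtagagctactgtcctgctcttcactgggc
Pou4f1: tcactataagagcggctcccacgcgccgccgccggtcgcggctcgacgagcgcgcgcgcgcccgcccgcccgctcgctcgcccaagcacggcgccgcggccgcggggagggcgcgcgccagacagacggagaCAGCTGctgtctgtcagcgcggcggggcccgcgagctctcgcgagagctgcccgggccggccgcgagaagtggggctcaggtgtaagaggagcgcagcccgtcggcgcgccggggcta
Windows of 300 bases, 250 before to 50 after the start, were found for 128 of the 165 higher genes, 264 of the 348 lower genes and 11905 of all 14879 genes tested, and for 61 of the 93 called genes named here. Both strands of each gene's first listed window were searched. CAGCTG stood in 16.4% of the windows of higher genes, 24.6% of those of lower genes and 15.6% of all windows, and TGACAG in 16.4%, 21.6% and 17.0%. TATAAA stood in 9.4%, 11.0% and 7.9%, the homeodomain core TAATTA in 2.3%, 4.9% and 2.5%, and the nuclear receptor motif AGGTCA in 10.2%, 12.1% and 12.5%. CANNTG, the general E-box of which CAGCTG is a case, stood in 64.1%, 69.7% and 64.6%. Among called genes of the muscle lists CAGCTG stood in 3 of 6 windows, and among called neuron genes in 3 of 9. A match is a description of these letters and was not tested as a site.

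Among 16 tested genes listed for the distal jaw, mostly homeobox, Tbx and bHLH factors of arch mesenchyme, 3 were higher distally and 1 was lower, a median difference of 0.74 against -0.02 over all genes. Besides Alx1 these were its relative Alx4, which read 8.34, 8.01 and 8.12 distally and 6.66, 6.54 and 6.74 proximally (1.51, SE 0.37, adjusted p = 0.0332), and Hand1, a bHLH factor of the distal arch, at 7.79, 7.91 and 7.80 against 7.17, 7.16 and 6.75 (0.81, SE 0.15, adjusted p = 0.0106). Dlx4 went the other way, with 6.03, 5.90 and 5.92 distally and 8.37, 8.46 and 8.52 proximally (-2.50, SE 0.56, adjusted p = 0.0215). With the number as a block over the 6 arrays, 9 of the 16 were higher and 3 lower, beside 646 and 1253 of all 14879 genes. Without proximal array 1, and likewise without proximal array 2, proximal array 3 or distal array 3, 1 of the 16 was called.

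Several classical distal factors had separate ends but no call. Hand2, required for lower jaw identity, read 13.54, 13.59 and 13.52 distally and 11.86, 11.97 and 12.30 proximally (1.50, SE 0.70, adjusted p = 0.256, and 0.00442 with the block over the 6 arrays). Its other probe sets gave 1.84 and 2.07. Msx2, a BMP-responsive homeobox gene, had a difference of 1.76 (adjusted p = 0.128, blocked 0.00385), and Msx1 one of 0.75 (0.519, blocked 0.00491). In limma's fit of the 6 arrays without a block, the adjusted p was 0.00111 for Hand2, 0.00228 for Msx2 and 0.00287 for Msx1. These genes thus passed 0.05 in the 6 arrays with or without the block. The same was true of Dlx2 (0.00313), Dlx5 (0.00327) and Pax3 (0.00146), given below. Gli1 (0.119), Hoxb2 (0.0526) and Aldh1a3 (0.0523) were among those that passed only with it. In the T-box genes Tbx2 and Tbx3 the differences were 1.20 and 0.99. With the block over 24 arrays Hand2, Msx2 and Msx1 were further from a call, at 0.302, 0.225 and 0.532. None of the uncalled genes given here with a blocked p from the 6 arrays was called with the block over 24 arrays. Their adjusted p there lay between 0.117 (Wif1) and 0.532 (Msx1). Dlx2 came nearer to a call than in the main fit, at 0.170 against 0.217.

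Of 21 genes listed for the proximal jaw and oral mesenchyme, 6 were lower distally and none was higher, with a median of -0.58. Nr2f1 read 8.47, 10.21 and 8.57 distally and 12.79, 12.56 and 13.08 proximally (-3.73, SE 0.48, adjusted p = 0.00209). Distal array 2 stood highest of its end, and without it the difference was -4.29. Its relative Nr2f2 fell by 1.90 (SE 0.25, adjusted p = 0.00209), and both were called in every fit that left out an array. Barx1, a homeobox factor of the proximal arch, read 10.45, 10.69 and 9.19 distally and 12.80, 12.72 and 12.91 proximally, so it was well expressed at both ends and fell by 2.70 (SE 0.71, adjusted p = 0.0440). The others were Gbx2 (-2.91), Dlx1 (-2.42) and the TALE homeobox gene Meis1 (-1.82), of which a further probe set gave -0.03. Blocked over the 6 arrays, 10 of the 21 were lower and 2 higher, and without any one of distal arrays 1 and 3 or the proximal arrays 2 were called.

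The Dlx genes, which are laid out in pairs along the chromosomes and pattern the arch from proximal to distal, all had lower distal values. Beside the called Dlx1 and Dlx4, Dlx2 differed by -1.29 (adjusted p = 0.217, blocked 0.00513), Dlx3 by -1.46 (0.117, blocked 0.00373), Dlx5 by -0.67 (0.282, blocked 0.00690) and Dlx6 by -0.58 (0.533). Dlx5 stayed above 11.9 in all 6 arrays, so both ends carried it. Dlx1 was called in 0 and Dlx4 in 1 of the 6 fits that left out an array, and with the block over 24 arrays their adjusted p was 0.0514 and 0.108.

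**Figure D2:**
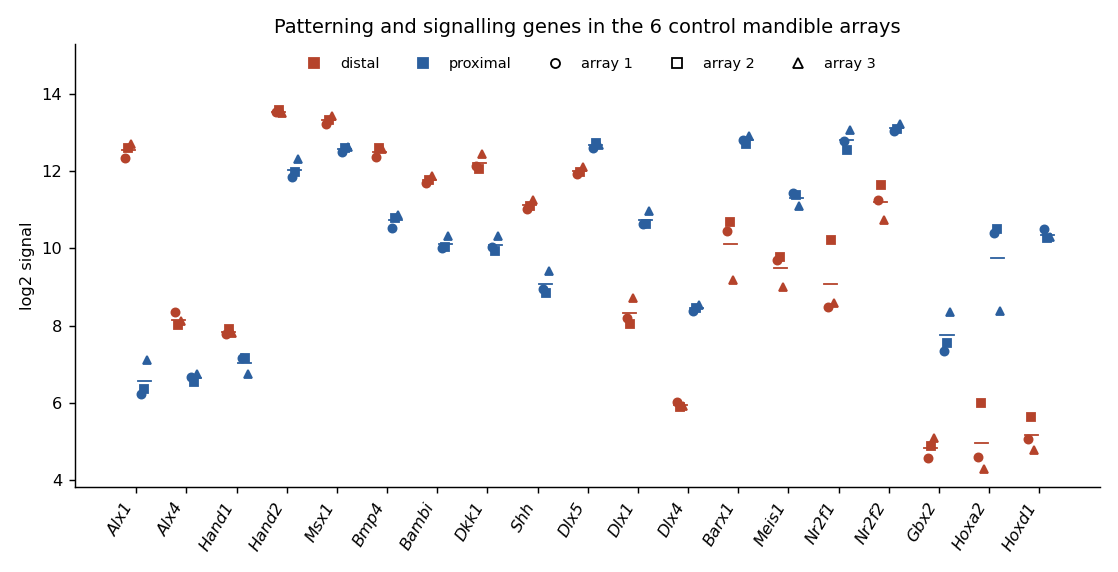
Log2 signal (y axis) of 19 patterning and signalling genes (x axis) in each of the 3 distal and 3 proximal arrays of the control mandible. Alx1 reads above 12 in every distal array and at most 7.11 proximally, while Nr2f1 and Barx1 read higher in every proximal array.

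Hoxd1 and Hoxa2 were lower at the distal end. Of 10 tested Hox genes known from the second arch and more posterior tissue, these 2 were called and 9 of 10 differences were negative, with a median of -0.93. Hoxa2, which gives the second arch its identity, read 4.60, 5.98 and 4.27 distally and 10.39, 10.51 and 8.37 proximally (-4.81, SE 1.09, adjusted p = 0.0227). Hoxd1 read 5.05, 5.62 and 4.78 distally and 10.51, 10.26 and 10.29 proximally (-5.20, SE 1.03, adjusted p = 0.0135). The proximal arrays were thus far above background and the distal ones at it. Hoxb2 differed by -1.74 without a call (0.0752, blocked 0.0306). With the block over the 6 arrays 6 of 10 were lower, and leaving out single arrays gave 0 to 3 calls. Cells of the second arch express these genes, and whether such cells lay within the proximal piece was not tested.

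In the network of Eya, Dach, Tbx1 and related genes, which acts in arch mesenchyme and head muscle precursors, 3 of 13 were lower distally and 1 was higher, with a median of -0.29. Msc (-2.57) and Tcf21 (-2.40), bHLH factors of the muscle precursors of the arches, fell distally, as did the transcriptional cofactor gene Dach1, with 8.38, 8.23 and 8.40 against 10.36, 10.02 and 10.54 (-1.97, SE 0.38, adjusted p = 0.0121). A second Tcf21 probe set, near background, gave 0.05. Eya2, a phosphatase and transcriptional cofactor, rose by 1.04 (SE 0.20, adjusted p = 0.0104). Tbx1 differed by 0.09. The calls in this list ranged from 0 to 4 when single arrays were left out, and under the block 3 were higher and 5 lower. Of 10 forkhead genes of facial mesenchyme none was called and 8 differences were negative, from -1.49 in Foxc1 to 0.62 in Foxf2. Under the block, 4 of them were lower.

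BMP genes split by end. Of 23, 3 were higher and 4 lower distally, and the median was 0.15. The ligand gene Bmp4 read 12.36, 12.59 and 12.57 distally and 10.53, 10.78 and 10.87 proximally (1.78, SE 0.40, adjusted p = 0.0214), Bmp5 rose by 0.58, and Bambi, a decoy receptor gene that BMP signals induce, rose by 1.66 (SE 0.29, adjusted p = 0.0068). The ligand gene Gdf5, known from forming joints, fell by 2.92 (SE 0.59, adjusted p = 0.0145). The type I receptor gene Bmpr1b fell by 2.31, and the extracellular regulators Bmper and Chrdl1 were at -2.07 and -1.08. Called ligand genes thus lay on both sides. Bmp4 kept its call in 1 of the 6 fits that left out an array, Bambi in all 6, and with the block over 24 arrays the adjusted p of Bmp4 was 0.100. Under the block, 8 were higher and 5 lower, and leaving out single arrays gave 1 to 7 calls.

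Secreted Wnt antagonists lay on both sides. Of 28 Wnt genes 2 were higher and 2 lower distally, with a median of 0.37. Dkk1 read 12.14, 12.05 and 12.45 distally and 10.03, 9.93 and 10.33 proximally (2.11, SE 0.46, adjusted p = 0.0189), and its second probe set gave 2.60. The Wnt agonist gene Rspo3 rose by 1.29 (SE 0.26, adjusted p = 0.0142). Sfrp1 and Sfrp2, which encode another class of Wnt antagonists, fell by 1.44 (SE 0.25, adjusted p = 0.00683) and 1.00 (SE 0.26, adjusted p = 0.0421). Among the genes without a call, Wif1, a further antagonist, differed by 1.70 (0.0546, blocked 0.00100), the ligand gene Wnt5a by 1.07 (0.147, blocked 0.00408) and the nuclear effector Lef1 by 0.90. Blocked over the 6 arrays, 12 were higher and 5 lower, and leaving out single arrays gave 1 to 4 calls.

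The FGF list held 4 genes lower and none higher distally of 22, with a median of 0.05. The ligand gene Fgf7 fell by 1.57, the receptor gene Fgfr4 by 1.70, and the feedback inhibitors Il17rd and Spry2 by 0.56 and 0.52. All 4 calls were gone without any single array other than distal array 2, and without that one 4 genes were called, Fgf7 not among them. Of the 5 Fgfr4 probe sets, the others gave -1.23 to 0.02. Fgf8, the ligand of the proximal arch epithelium, differed by 0.36 and Fgfr1, the main receptor of arch mesenchyme, by 0.24. Under the block 3 FGF genes were higher and 7 lower, and 2 and 5 retinoic acid genes. In the retinoic acid pathway 3 of 15 were lower distally and none higher, with a median of -0.14. They were Stra6, which takes up retinol (-1.79, SE 0.30, adjusted p = 0.00602), Cyp26a1, which degrades retinoic acid (-1.64, SE 0.33, adjusted p = 0.0136) and the receptor gene Rxrg (-1.57). Leaving out single arrays gave 1 to 3 calls. The synthesising enzymes Aldh1a2 and Aldh1a3 differed by -1.07 and -1.75 without a call (0.0790 and 0.205, blocked 0.0244 and 0.0267).

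Hedgehog genes gave no call among 10, with a median of 0.11. Shh, a ligand of the oral epithelium, read 11.02, 11.11 and 11.25 distally and 8.94, 8.84 and 9.41 proximally (2.06, SE 0.67, adjusted p = 0.0957, blocked 0.00189). Its targets Gli1 and Ptch1 differed by 0.70 and 0.51 (0.219 and 0.249, blocked 0.0131 and 0.0155). All these ends were separate. Of 9 endothelin genes only Ednrb, a receptor of crest derived glia and pigment cells, was lower (-2.02), while the ligand gene Edn1 overlapped between ends (-0.13). Of 17 Notch genes the target Hes1 fell by 0.66 (SE 0.12, adjusted p = 0.00864), and Hey2 differed by 2.13 without a call (0.0739, blocked 0.00342). Of 26 guidance genes Sema3e alone was lower (-1.31). The 1 call in each of the endothelin, Notch and guidance lists stands beside 3.45% of all genes called. Of 20 TGF-beta genes none was called, from Ccn2 at -0.80 to Inhba at 0.86, and Tgfbr2 itself read 11.98, 12.14 and 11.56 distally and 12.16, 12.08 and 11.98 proximally (-0.18, SE 0.23, adjusted p = 0.738). With the block over the 6 arrays 3 Hedgehog genes were higher, 2 endothelin genes were lower, and the numbers higher and lower were 3 and 4 for Notch, 4 and 4 for guidance and 1 and 4 for TGF-beta genes.

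**Figure D3:**
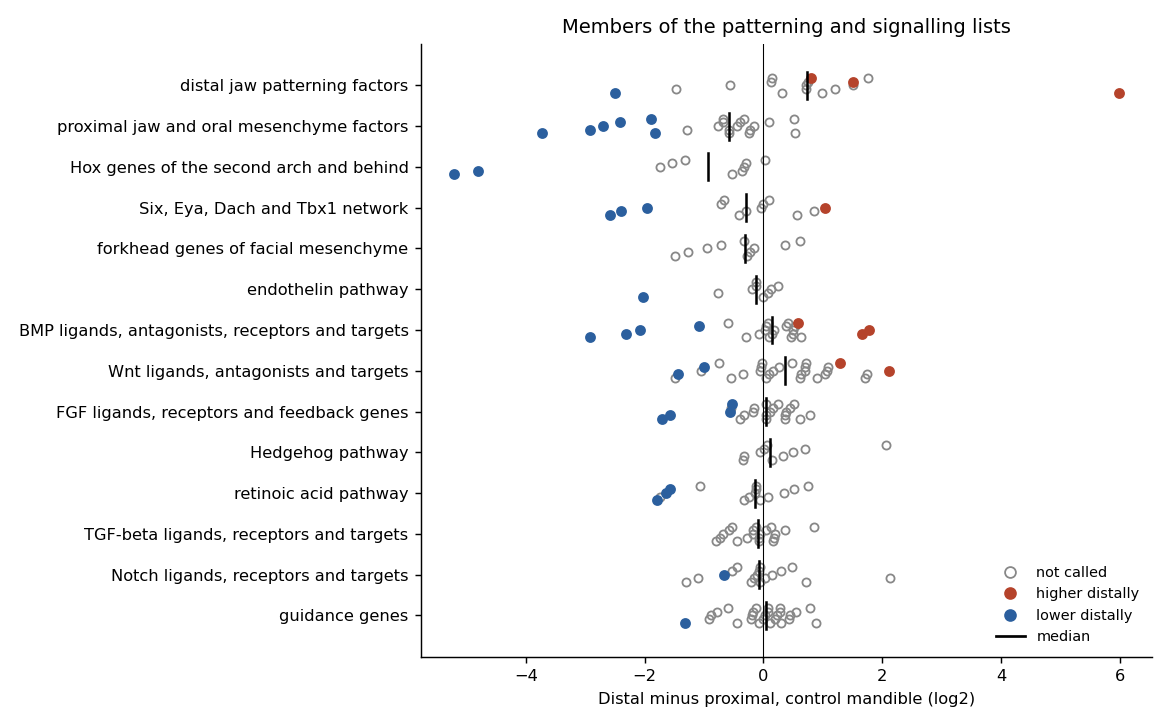
Distal minus proximal difference in log2 signal of each tested member of 14 lists of patterning and signalling genes, with called members filled and the median of each list as a bar. Distal patterning factors lie mostly to the right of 0 (median 0.74), and proximal factors and Hox genes mostly to the left (medians -0.58 and -0.93).

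In the muscle lists 9 genes were lower at the distal end, and the count turned on single arrays. Of 17 myogenic factor and myoblast genes 8 were lower distally and none was higher, with a median of -1.91. Of 26 sarcomere and contraction genes 1 was, Neb, which encodes nebulin (-3.15), although 25 of the 26 differences were negative and their median was -2.68. The mean of the sarcomere genes was 7.40, 9.47 and 6.64 in the distal arrays and 10.24, 10.31 and 9.92 in the proximal ones. Distal array 2 thus lay nearer to the proximal arrays than to the other distal ones. Without it 13 of 17 myoblast and 21 of 26 sarcomere genes were called, with medians of -2.39 and -3.74. Without any other single array none was called in either list, and with the block over the 6 arrays 8 myoblast genes were lower and 1 higher, and 13 sarcomere genes were lower. With the block over 24 arrays, 9 of 17 myoblast and 9 of 26 sarcomere genes were lower and none was higher, where 1.55% of all genes were called.

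Both the precursor factors and the genes of the nerve-muscle junction were among the called muscle genes. Myf5, the earliest myogenic factor of head muscle, read 6.12, 8.08 and 4.33 distally and 9.55, 9.37 and 9.56 proximally (-3.32, SE 0.72, adjusted p = 0.0182). Pax7, a factor of muscle precursors (-2.46), the fusion factor gene Mymk (-2.18), the desmin gene Des (-1.97) and the cadherin gene Cdh15 (-1.91) were lower distally. So were the acetylcholine receptor subunit genes Chrna1 (-2.03) and Chrng (-1.30) and Rapsn (-1.52), whose product clusters the receptor. The dimmest Chrng probe set and a second Des probe set, both near background, gave 0.19 and -0.00. Myod1 (-2.82, adjusted p = 0.0549) and Myog (-2.92, 0.107) were not called. With the block over 24 arrays Myod1 was called (0.0431) and Myog was not (0.0648). Pax3, which muscle precursors of the trunk and the neural crest both use, went the other way, with 11.45, 11.28 and 11.76 distally and 8.41, 8.76 and 9.26 proximally (2.69, SE 1.15, adjusted p = 0.213, blocked 0.00189). Outside the control mandible Pax7 did not follow the other muscle genes. It read 10.43 to 11.74 in the control maxilla, where Mymk read 6.64 to 7.02 and Myf5 at most 7.89. In the knockout mandible Pax7 read 8.32 to 9.55 and Mymk 8.53 to 10.25. Which cells gave the Pax7 signal was not tested.

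Neuron genes had the most calls of the 34 lists. Of 18, 12 were lower distally and none was higher, with a median of -2.18. Nefl, a neurofilament gene, read 7.51, 9.67 and 7.72 distally and 12.68, 12.39 and 11.85 proximally (-4.00, SE 0.67, adjusted p = 0.00602), and its second probe set gave -4.07. Neurod1, a transcription factor of sensory neuron precursors, read 5.54, 6.86 and 5.16 distally and 9.79, 9.43 and 8.72 proximally (-3.46, SE 0.50, adjusted p = 0.00339). These transcripts include both axonal proteins and factors that sit in the nuclei of neurons. Pou4f1, a factor of sensory ganglia, read 5.48, 5.83 and 5.42 distally and 8.88, 8.37 and 8.05 proximally (-2.86, SE 0.48, adjusted p = 0.00602). Also called were Nefm, Stmn3, Ina (-3.12), Prph (-2.88), Snap25 (-2.80), Sncg (-2.35), Neurog1 (-2.01), Elavl4 (-1.96) and Elavl3 (-1.54). The 3 other Prph probe sets gave -0.27 to 0.19. The general neuronal genes Tubb3 (-0.59) and Stmn2 (0.30) were not called. When single arrays were left out, 6 to 10 of the 18 were called.

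Genes of Schwann cells and other glia went with them. Of 9, 6 were lower distally and all 9 differences were negative, with a median of -1.09. Sox10, the factor of crest derived glia, read 8.81, 8.56 and 8.31 distally and 10.17, 10.23 and 9.80 proximally (-1.50, SE 0.24, adjusted p = 0.00492). Fabp7, Cdh19 (-2.14), Ednrb, Foxd3 (-1.09) and the neuregulin receptor gene Erbb3 (-1.06) were the others, and the second Erbb3 probe set gave 0.01. With the block over the 6 arrays all 9 were lower, and 1 to 5 were called when single arrays were left out. The mean of the neuron genes was 7.30, 7.98 and 7.36 distally against 10.05, 9.60 and 9.23 proximally, so distal array 2 was again the highest of its end but far from the proximal arrays.

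The lists of epithelium, endothelium, erythroid and macrophage genes gave no call in the main fit. The called myeloid gene S100a8, named above, is in none of them. Of 19 epithelium genes none was called, yet 18 differences were positive with a median of 1.05, led by Krt14, a keratin of basal epithelium, at 12.10, 11.55 and 11.68 distally and 9.74, 10.29 and 8.95 proximally (2.11, SE 0.72, adjusted p = 0.114, blocked 0.0176). The mean of the list was 10.26, 9.95 and 9.90 distally and 9.29, 9.51 and 8.37 proximally, and 8 of the 19 were higher with the block over the 6 arrays. Shh, an epithelial gene, stood higher in the same arrays, and the part of epithelium in its difference was not tested. Of 11 oral and dental epithelium genes none was called (median 0.26, and 3 higher and 2 lower with the block). Of 15 endothelium genes none was called, and all lay between -0.25 and 0.27. All 11 erythroid differences were positive with a median of 0.24, none called (4 with the block). With the block over 24 arrays 3 of the 11 were higher, where 1.55% of all genes were called. The arrays with number 3 were the highest of both ends, at 10.54 and 10.21 in the mean of the erythroid list. Of 16 macrophage genes 15 differences were negative with a median of -0.35, none called (10 lower with the block).

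**Figure D4:**
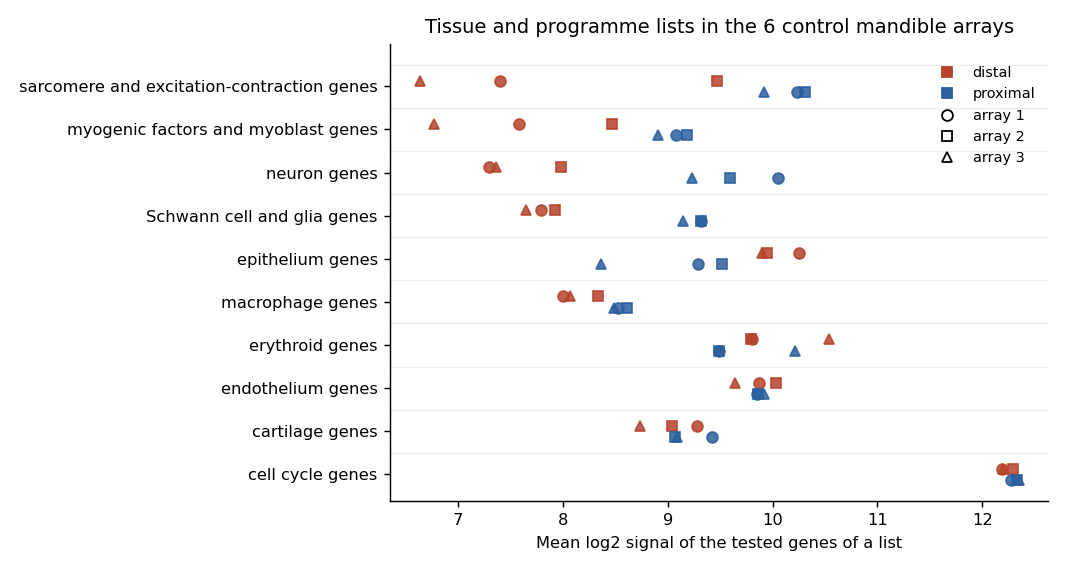
Mean log2 signal of 10 lists of tissue and cell type genes in each of the 3 distal and 3 proximal arrays of the control mandible. Neuron, glia and muscle lists read higher in every proximal array, distal array 2 (9.47 for sarcomere genes) lies nearer to the proximal arrays in the muscle lists, and the epithelium list reads higher in every distal array.

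In the lists for neighbouring structures 3 genes were called, against a background of 3.45% of all genes. Of 11 eye, nasal and forebrain genes Lhx2 alone was lower distally (-2.02), with distal arrays below background. Of 5 tested otic and second arch region genes, Gata3 (1.70, SE 0.43, adjusted p = 0.0358) and Otx1 (1.43, SE 0.32, adjusted p = 0.0199) were higher distally. Both are also known from tissues outside the ear, and Gata3 missed the call with the block over the 6 arrays (0.0503). None of 6 thyroid and pharyngeal endoderm genes was called, with a median of -0.18. Under the block 4 eye, nasal and forebrain genes and 1 endoderm gene were lower.

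In the cartilage and osteoblast lists only Alpl was called, where 3.45% of all genes were. None of 18 cartilage genes was called, from Acan at -1.16 to Trps1 at 1.11, and Sox9, the master factor of cartilage, differed by -0.29. Of 8 osteoblast genes Alpl, the bone alkaline phosphatase gene, was higher distally, at 10.57, 10.57 and 10.63 against 9.01, 8.65 and 8.98 (1.71, SE 0.44, adjusted p = 0.0382), and Sp7, a factor of early osteoblasts, differed by 1.29 without a call (0.190, blocked 0.0262). Runx2 was not analysed here. Alpl lost its call when any single array was left out. Of 10 tendon genes Tnmd was higher (1.76) and Egr1 lower (-1.38). With the block, the numbers higher and lower were 1 and 2 for cartilage, 2 and 1 for osteoblast and 3 and 4 for tendon genes, beside 646 and 1253 of all 14879 genes.

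Among 26 collagen and matrix genes 2 were lower distally, where 2.34% of all genes tested were. The same share stands beside the protease and cell cycle lists given next. Lox, the enzyme that crosslinks collagen and elastin, read 9.70, 9.90 and 8.67 distally and 12.65, 12.58 and 12.50 proximally (-3.15, SE 0.55, adjusted p = 0.0068), with a second probe set at -3.21, and Col14a1, a fibril-associated collagen, fell by 2.38. Under the block 1 matrix gene was higher and 4 were lower, and 2 and 3 proteases and inhibitors. The fibrillar collagen genes Col1a1 and Col3a1 differed by 0.15 and 0.09. Of 17 proteases and inhibitors Adamts1 (-1.48) and Adamts9 (-1.07), which cleave versican, were lower. The list of 21 cell cycle genes had a median of 0.00, with Mki67 at 0.15 and Pcna at -0.04. In that list the cyclin gene Ccnd1 fell by 0.64 (SE 0.16, adjusted p = 0.0355) and the cell cycle inhibitor gene Cdkn1a by 1.26 (SE 0.27, adjusted p = 0.0167).

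Of 12 immediate early genes, which respond quickly to growth factors and to handling, Jun and Egr1 were lower distally, beside 2.34% of all genes. All 12 differences were negative with a median of -0.29. Jun read 10.70, 11.47 and 10.70 distally and 12.29, 12.53 and 12.33 proximally (-1.43, SE 0.22, adjusted p = 0.00477) and was called in every fit that left out an array. Blocked over the 6 arrays, 6 were lower. None of 13 hypoxia and glycolysis genes was called (median 0.04), and 1 was higher with the block.

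The ends of the control maxilla served to ask whether an end effect differed between jaws. The test of that difference called 0 genes (0%) by limma, with 920 at an unadjusted p under 0.05. By limma, the smallest p was that of Nr2f1, whose end effect differed between the jaws by -3.87 (SE 0.68, adjusted p = 0.264), with 11.51 to 12.57 in all 6 maxilla arrays. Next were Fibin (-1.97), Grin3a (1.20), Nr2f2 (-1.74) and 1810062G17Rik (0.43), all at the same adjusted p. In the maxilla Alx1 read 12.63 to 13.12 at both ends, Hoxa2 at most 4.56 and Hand2 5.06 to 6.64. Of the genes called in the mandible, 68.5% of the 165 higher and 77.3% of the 348 lower had the same sign in the maxilla, where 42.4% of all genes were positive and 57.6% negative.

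Without the 4 arrays that lean to the opposite end, the end effect differed between jaws in 35 genes. The signed difference, mandible minus maxilla, was positive in 20 and negative in 15, whichever jaw held the end effect. Those arrays were picked by their values, so this count is a description. Among the 35 genes were Alx1 (5.64, adjusted p = 0.00337), Dlx4 (-2.98, adjusted p = 0.000282), its antisense neighbour Dlx4os (-3.11), Cited1 (2.59), Lepr (2.04), Masp1 (1.86) and 3110099E03Rik (-3.53). Others had little end effect in the mandible. Vtn and Cemip differed between jaws by 4.88 and 3.14, with end effects of -0.325 and -0.655 in the mandible. In the maxilla itself, without its arrays numbered 1, the ends differed by 0.35 in Alx1, 0.48 in Dlx4, -0.46 in Cited1, -0.28 in Lepr and 0.03 in Masp1. With the number as a block over the 12 arrays 90 genes were called, and over all 24 arrays 0.

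The knockout mandible was used in the same way. The test of the difference from the control mandible called 0 genes (0%) by limma, with 774 at an unadjusted p under 0.05. By limma, the smallest p was that of Neurod1, with a difference of -3.75 (SE 0.70, adjusted p = 0.502), since it read 4.85 to 6.10 in all 6 knockout mandible arrays. Plpp2 (0.59), Nr2f2 (-1.68), Nr2f1 (-3.19) and Tenm4 (-0.81) were next at the same adjusted p. Of the genes called in the control mandible, 82.4% of the higher and 89.7% of the lower had the same sign in the knockout mandible, where 43.6% of all genes were positive and 56.4% negative. Without the arrays numbered 1 these shares were 95.8% and 98.3%, beside 41.3% positive and 58.7% negative over all genes. The arrays left out were picked by their own values, so these shares are a description and support nothing.

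Some values in the knockout mandible showed how the labels bear on this. Alx1 read 6.26, 10.79 and 11.91 in the arrays labelled distal and 11.06, 6.16 and 6.68 in those labelled proximal, so that array 1 of each end had the level of the opposite end. Hoxa2 read 9.99, 8.19 and 6.62 in the arrays labelled distal and 5.41, 10.97 and 9.62 in those labelled proximal. Myf5 read 9.07 to 10.02 at both ends of the knockout mandible, against 4.33 to 8.08 in the control distal arrays. The difference in Myf5 end effects was among those not called.

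**Figure D5:**
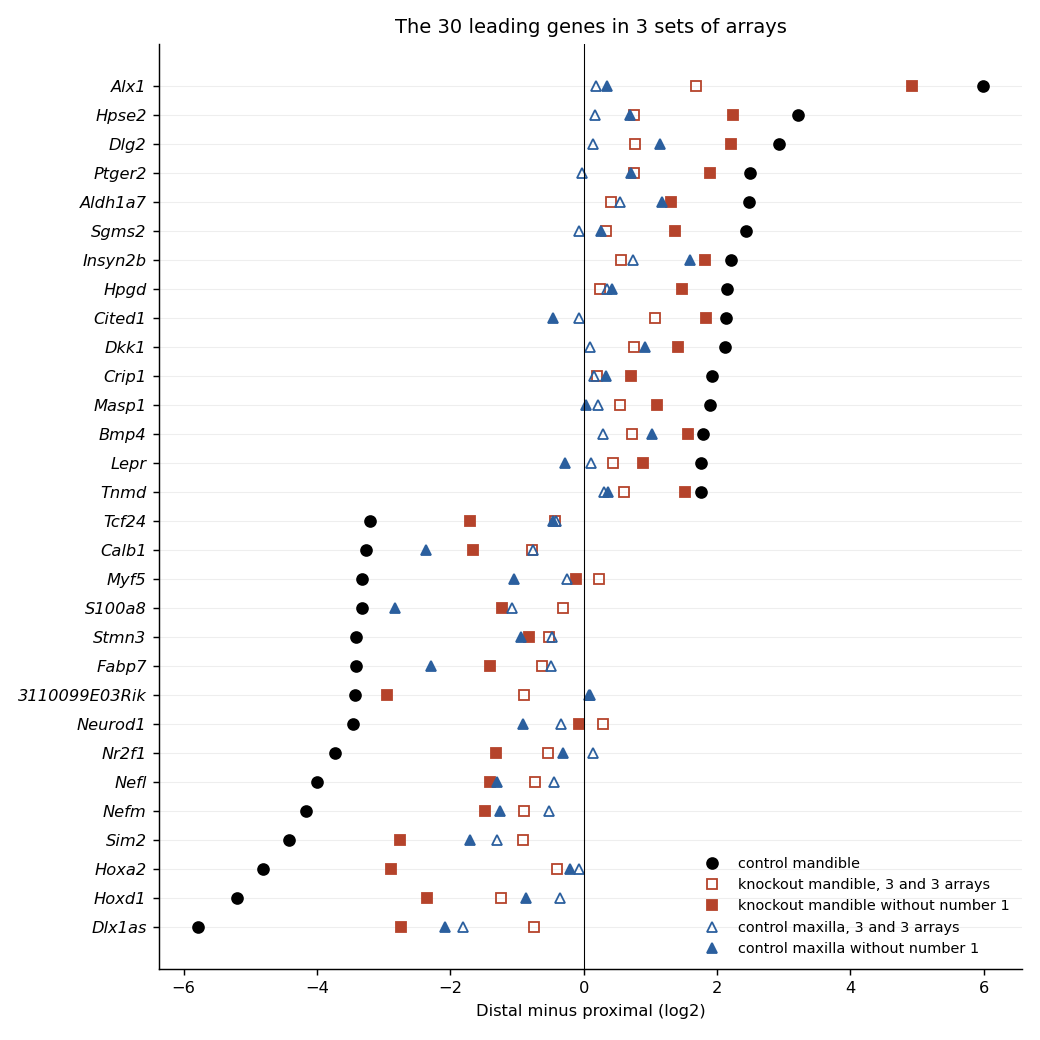
Distal minus proximal difference in log2 signal of the 15 leading genes of each direction in the control mandible, with the same genes in the knockout mandible and in the control maxilla, each with and without the arrays numbered 1. Alx1 differs by 5.99 in the control mandible, 1.69 in the knockout mandible and 0.19 in the control maxilla with all arrays.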

How the data were processed

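Expression was measured on 45101 probe sets. The authors deposited log2 signal, and the submitters' processing notes name RMA for it, with no version. The 6 arrays were distinct, since the smallest root mean square difference between 2 of them was 0.205. Only the 34945 probe sets with 1 gene symbol were kept, which leaves out 932 with several, 9160 with none and 64 controls. For each of 18193 genes the probe set of highest mean over 24 arrays was used, and 14879 genes above their array's 30th percentile in at least 3 arrays were tested. limma 3.58.1 (R 4.3.3) fitted 8 group means to the 24 arrays with 16 residual degrees of freedom, and contrasts were tested two-sided with lmFit and eBayes, checked on simulated data. Genes named are the 15 largest differences each way among called genes with separate ends, members of 34 gene lists, the 5 smallest p in each difference of effects, and Eif2s3y and Xist. The members and lists were chosen with earlier results of these data known. No list was tested, and lists are described by counts and medians. Array numbers paired the ends: deviations from the group means of same-numbered arrays correlated at 0.295, 0.413 and 0.417 and of other pairs at -0.342 to -0.029. The pairing comes from these values, and the labels give no meaning to the numbers. Promoter sequences are from RefSeq (GRCm38.p6).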

Additional observations from a re-analysis of the deposited data

Results flagged for a closer look

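In 5 named genes, every same-numbered pair of another group went against every pair of the control mandible. In the control maxilla this held for Chrng, with a mean distal minus proximal difference of 0.24 (pairs 0.07 to 0.55) against pairs of -1.71 to -0.68 in the control mandible. For Fgfr4 the maxilla value was 0.20 (0.11 to 0.27) against -2.08 to -0.96, for Mymk 0.17 (0.02 to 0.39) against -2.81 to -1.10, and for Hand1 -0.10 (-0.14 to -0.05) against 0.62 to 1.05. In the knockout mandible it held for Tcf21, at 0.37 (0.19 to 0.64) against -3.18 to -1.72. The maxilla values are small differences at low signal. Over the maxilla arrays Chrng read 6.35 to 7.19, Fgfr4 6.61 to 7.04, Mymk 6.64 to 7.02 and Hand1 6.85 to 7.02. The medians of those arrays were 7.31 to 7.38. By limma's test of the difference between groups, the adjusted p was 0.481 for Chrng, 0.430 for Fgfr4, 0.481 for Mymk, 0.387 for Hand1 and 0.502 for Tcf21, so none was called. Array pair 1 of both other groups, which leans to the opposite end, is among these pairs, and its part in them was not tested.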

How the results depend on the processing

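The numbers of genes called higher and lower distally (165 and 348) stayed within 1.5 times under median centring, cyclic loess, no filter or a stricter one, the mean of all probe sets, and a trended robust prior. They were 878 and 1626 with array weights, 465 and 974 with only the arrays compared, 460 and 1008 with only the 12 control arrays, 308 and 616 with the number as a random block, and 356 and 629 without the 4 arrays that lean to the opposite end. With the replicate number as a fixed block they were 646 and 1253 over the 6 arrays and, in a fit added after the data were seen, 72 and 158 over 24 arrays. With the block over the 6 arrays, 90 of the 93 named called genes kept their call, and S100a8, Myf5 and Gata3 lost it. In limma's fit of the 6 arrays without a block, S100a8 (adjusted p = 0.0301) and Gata3 (0.0422) were called. Myf5 was not called there either (0.0572), so it missed the call with or without the pairing. With the block over 24 arrays, 41 of the 93 held. The numbers called higher and lower were 2 and 25 without the control arrays with number 2, and 18 to 183 and 34 to 536 when single arrays were left out. Against a fold threshold of 1 (log2), 0 and 0 passed limma's treat test, with 180 at an unadjusted p under 0.05. Of the values of the named called genes under 21 alternatives, 1353 kept their call, 598 lost it and 0 reversed.

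The difference of end effects from the maxilla was called in 394 genes with array weights, 242 with only the arrays compared, 90 with the replicate block over those 12 arrays, 35 without the arrays that lean to the opposite end and 0 to 1 when single arrays were left out. The difference from the knockout mandible was called in 87 genes with array weights, 1 with only the arrays compared and 0 to 3 when single arrays were left out. The cause of these changes was not tested. The number of arrays, 3 an end, limit the precision, and values near background understate differences.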
